A study of Mus musculus with 39 samples.

Results

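Leptin given into the brain ventricle was compared with saline in the duodenum of mice on plain water, in the first of the series' 2 sets of libraries. The members were all Leptin-water and Saline-water libraries whose label begins with M_, here called set M. These are 7 Leptin-water and 8 Saline-water libraries, 15 of the 39 in the series. All 15 came from wild-type male C57BL/6 mice aged 8 weeks that drank water without antibiotics for 48 h. The mice carried a cannula in the right lateral ventricle, placed under anaesthesia 3 days before tissue was taken, and both groups share that surgery and 2 h of food deprivation. The Leptin-water mice received 3 µg of leptin through the cannula and the Saline-water mice received saline, and the duodenum was frozen 2 h after the injection. Bulk RNA was sequenced, so that fewer cells of a type and less RNA per cell cannot be told apart. The labels number the libraries as replicates without stating that each is a separate animal, and p-values measure the spread between these libraries.

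Leptin is a hormone of fat cells that signals energy stores to the brain through the leptin receptor, a cytokine receptor that acts through the kinase JAK2 and the transcription factor STAT3. From the hypothalamus and brainstem, signals reach the gut through sympathetic and vagal fibres, adrenal hormones and the enteric nervous system, whose neurons lie in the gut wall. The duodenum receives gastric acid, bile and pancreatic juice, and its epithelium of enterocytes, goblet cells and hormone-secreting enteroendocrine cells absorbs nutrients.

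Library totals were 34806588 to 63311592 counts in Leptin-water libraries and 46319140 to 64593210 counts in Saline-water libraries, and the difference had a 2-sided exact permutation p of 0.166. Residual ribosomal RNA, read from Rn45s, took 7.60% to 11.9% of the counts with leptin and 5.92% to 13.0% with saline (2-sided exact permutation p = 0.331). Enterocyte markers and Pdx1 were present in every library. The 17 enterocyte markers averaged 9.66 to 9.97 log2 CPM (counts scaled to library size) with leptin and 9.57 to 9.96 with saline. Pdx1, a factor of duodenum and pancreas, was at 120 to 131 CPM with leptin and 118 to 147 CPM with saline, and Slc10a2, the bile acid carrier of the ileum, was at 0.728 to 2.11 CPM with leptin and 0.691 to 2.13 CPM with saline. Library Leptin-water 7 stood apart. It had the lowest total and a score of 38.4 on the first principal component, against -0.0602 to 9.37 in the other 6 Leptin-water and -19.1 to 3.27 in the Saline-water libraries. That component held 24.7% of the variance, and its scores differed between the groups (2-sided exact permutation p = 0.00186). The stomach and Brunner gland list summed to 1767 CPM in Leptin-water 7. It summed to 14361 to 30488 CPM in the other Leptin-water libraries and to 15416 to 43901 CPM in the Saline-water libraries. Leptin-water 6 held the most pancreatic RNA, as described with the marker lists further on.

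Expression of 5 genes rose with leptin and no gene passed the test in the downward direction, out of 16333 genes tested (0.0306%). The 5 were Gap43, a growth-cone protein of neurons, Rgs7bp, the membrane anchor of a family of G-protein regulators in neurons, Chodl, a membrane protein with a lectin domain, Gpr52, an orphan receptor coupled to Gs, and the antisense transcript Slc13a2os. The test was edgeR's quasi-likelihood F test with Benjamini-Hochberg adjustment over all genes and a threshold of 0.05. At an unadjusted p under 0.05 there were 1373 higher and 1060 lower genes (8.41% and 6.49%), or 1789 and 752 with upper quartile scaling, and the lowest adjusted p among lower genes was 0.0703. Over all genes the median log2 fold change was -0.005, with 48.3% above and 51.7% below 0. The count of 5 rested on the libraries in it. It was 0 without Leptin-water 4 or 5 or without Saline-water 1, 2, 3, 4, 6 or 7, it was 1 without Leptin-water 3 or 7 and 2 without Leptin-water 2 or Saline-water 8, and it was 7 without Leptin-water 1. Leaving out Leptin-water 6 gave 129 genes and leaving out Saline-water 5 gave 130, each including the 5. DESeq2 called 277 genes, 195 higher and 82 lower.

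Gap43 is on GRCm38 chromosome 16 (42248442 to 42340651, minus strand). Its level in CPM was 0.954 at the lowest, 1.21 at the median and 1.43 at the highest in Leptin-water libraries, against 0.513, 0.647 and 0.717 in Saline-water libraries. The groups did not overlap, although the gene was expressed at a low level in both. The log2 fold change was 0.92 (SE 0.14, adjusted p = 0.0362). Rgs7bp (chromosome 13, 104945904 to 105054930, minus strand) had a lowest, median and highest level of 5.52, 8.01 and 8.89 CPM with leptin, against 3.74, 4.76 and 5.27 CPM with saline, again without overlap. With a log2 fold change of 0.67 (SE 0.11), it had an adjusted p of 0.0362.

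Slc13a2os (chromosome 11, 78394485 to 78405657, plus strand) had 12.3, 15.4 and 19.4 CPM at its lowest, median and highest with leptin, against 7.68, 10.0 and 11.6 CPM with saline. All 7 Leptin-water libraries were above every Saline-water library, and the log2 fold change was 0.67 (SE 0.10, adjusted p = 0.0362). It overlaps Slc13a2 on the minus strand (78397087 to 78422217), which encodes a sodium-coupled dicarboxylate carrier of the brush border. The library kit keeps the strand, but the strand setting of the counting is not given in the sources used here, so reads of the pair may not be separable. Slc13a2 itself had 29.2, 40.4 and 54.3 CPM with leptin, against 18.9, 34.3 and 38.3 CPM with saline. Those groups overlapped, and the log2 fold change of 0.33 did not pass (SE 0.14, adjusted p = 0.286).

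Gpr52 (chromosome 1, 160574717 to 160579704 in RefSeq) had 22.1, 24.3 and 27.9 CPM with leptin, against 18.4, 19.4 and 22.8 CPM with saline. Of the Leptin-water libraries 6 of 7 were above every Saline-water library, and the highest saline value came from Saline-water 5. The log2 fold change was 0.37 (SE 0.06, adjusted p = 0.0362). Gpr52 lies within the span of Rabgap1l, whose own log2 fold change was 0.11 (adjusted p = 0.217). Chodl (chromosome 16, 78930948 to 78951733, plus strand) had 6.37, 8.57 and 9.47 CPM with leptin, against 3.80, 5.21 and 6.54 CPM with saline. Leptin-water 5 was the 1 library within the saline range, and the log2 fold change was 0.66 (SE 0.11, adjusted p = 0.0436).

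**Figure D1:**
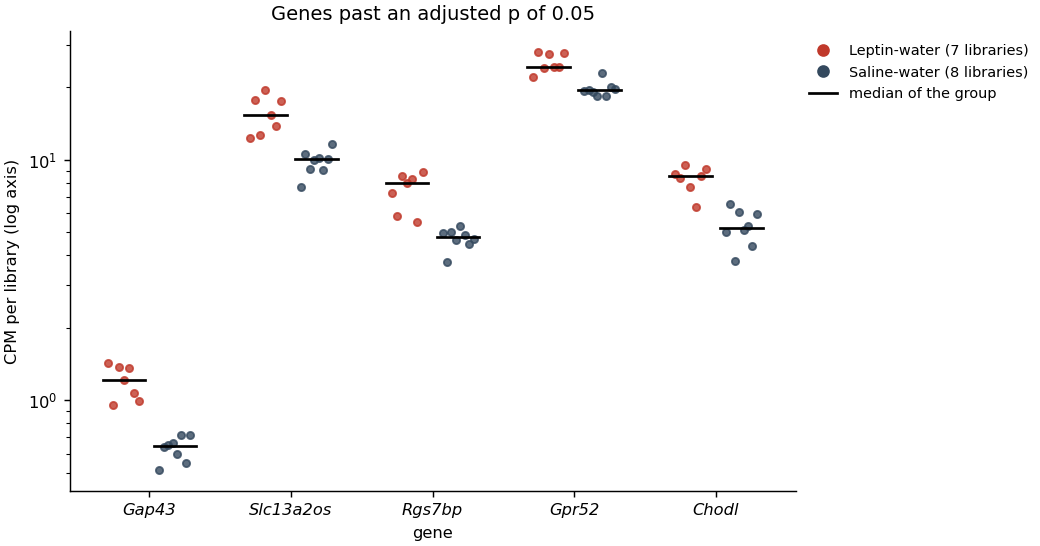
CPM per library (log axis) of the 5 genes past an adjusted p of 0.05, with Leptin-water points left of Saline-water points and a bar at each group's median. The groups are apart for Gap43, Slc13a2os and Rgs7bp, and 1 Leptin-water library of Gpr52 and of Chodl lies within the saline range.

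No overlap between the groups was seen for 37 genes (0.227%), 21 with leptin above and 16 with leptin below. Among genes with a mean of at least 1 log2 CPM, the 10 with the lowest p in each direction added the following to those above. On the higher side they were Rock2, a kinase of contraction, Pcdh20, a protocadherin, Ankrd12, Dgkb, a diacylglycerol kinase, Frk, a Src-family kinase of epithelia, and Cacna1e, the pore subunit of an R-type calcium channel. Ankrd12 had 41.5 to 47.9 CPM with leptin and 29.5 to 40.8 CPM with saline, without overlap, which is 0.31 on the log2 scale (adjusted p = 0.0735). Log2 fold changes of the other 5 ran from 0.26 for Frk to 0.87 for Dgkb, with adjusted p from 0.0735 to 0.0922.

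Of the 10 genes on the lower side, Dctpp1 had the lowest p. Dctpp1, which removes damaged deoxycytidine nucleotides, had 6.81 to 8.57 CPM with leptin and 9.17 to 11.3 CPM with saline, or -0.37 on the log2 scale (adjusted p = 0.0703). Rab11fip4, an effector of recycling endosomes, had 12.8 to 15.6 CPM with leptin and 15.7 to 19.7 CPM with saline (log2 fold change -0.32). H1f0, the replacement linker histone, had 158 to 179 CPM with leptin and 179 to 215 CPM with saline (log2 fold change -0.22). Sertad3 had a log2 fold change of -0.29, and Naxe, a repair enzyme for damaged NADH, and the corepressor Bcor had -0.28 and -0.25. All 7 Leptin-water libraries were below every Saline-water library for Dctpp1, Rab11fip4, H1f0 and Sertad3, and 6 of 7 were for Naxe, Bcor and Cc2d1a (log2 fold change -0.19). None of these lower genes passed the adjusted threshold. The remaining 3 of the 10, Nr4a1, Sik1 and Egr1, belong to the activity-dependent genes described next.

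Immediate early genes are transcribed within minutes of a stimulus through factors that are already present, among them CREB, which binds the cAMP response element. Of the 26 genes listed, 25 were measured, 18 had a log2 fold change below 0 and the median was -0.16 (-0.25 with the muscle and pancreas marker lists as covariates), against -0.005 over all genes. Lower levels with an unadjusted p under 0.05 were seen in 8 and higher levels in 1, against 6.49% and 8.41% of all genes, and none passed the adjusted threshold. Nr4a1, an orphan nuclear receptor (chromosome 15, 101254269 to 101274795, plus strand), had the largest difference of the list. Its lowest, median and highest levels were 2.62, 4.56 and 5.95 CPM with leptin, against 6.59, 11.5 and 31.0 CPM with saline. The groups did not overlap, the highest saline level came from Saline-water 3 and the lowest leptin level from Leptin-water 7. The log2 fold change was -1.51 (SE 0.29, adjusted p = 0.0735), and it was -1.43 without Leptin-water 6 and 7.

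Egr1, a zinc-finger transcription factor, had 9.71, 12.3 and 20.3 CPM at its lowest, median and highest with leptin, against 14.7, 23.8 and 37.6 CPM with saline. The groups overlapped, with 4 Leptin-water libraries below every Saline-water library, and the log2 fold change was -0.90 (SE 0.19, adjusted p = 0.0922). Ccn1, a secreted matrix protein (chromosome 3, 145646976 to 145649981, minus strand), had 2.68, 2.86 and 5.00 CPM with leptin, against 3.08, 6.03 and 9.21 CPM with saline. Its lowest saline level, in Saline-water 5, lay apart from the other 7, and the difference was -0.85 on the log2 scale (SE 0.19, adjusted p = 0.103). Sik1, the salt-inducible kinase that is induced by CREB and restrains its coactivators, is in no list here. It had 34.0, 41.8 and 42.9 CPM with leptin, against 42.5, 51.5 and 60.4 CPM with saline, and 6 of 7 Leptin-water libraries were below every Saline-water library (log2 fold change -0.37, SE 0.07, adjusted p = 0.0735).

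The class was not uniform. Klf6, a Krüppel-like factor, had 178 to 228 CPM with leptin and 142 to 202 CPM with saline, or 0.26 on the log2 scale (adjusted p = 0.155). Fos, the founding member of the class, had 158, 180 and 211 CPM with leptin, against 131, 158 and 227 CPM with saline. Its groups overlapped over most of their range, and the log2 fold change was 0.17 (SE 0.11, adjusted p = 0.462).

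**Figure D2:**
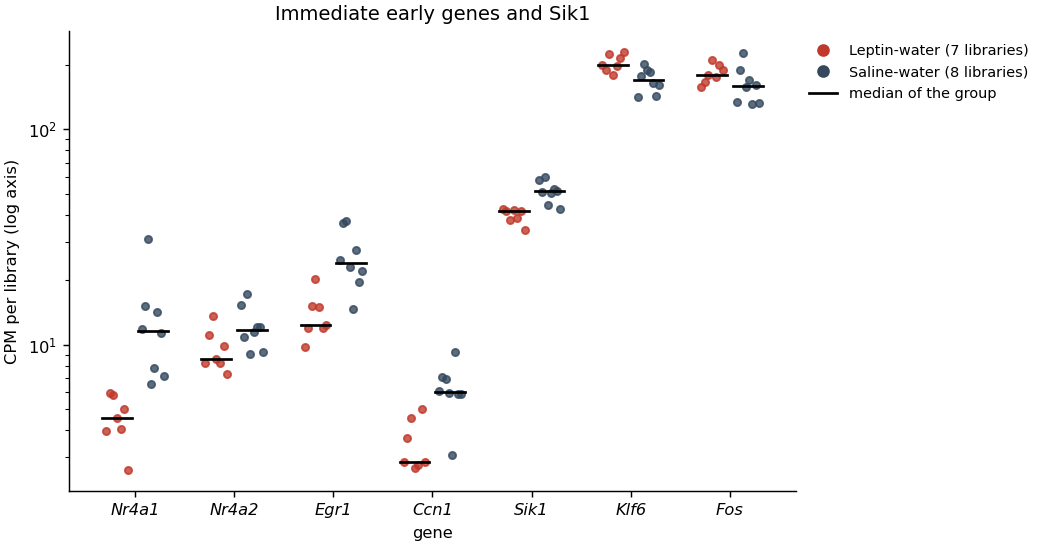
CPM per library (log axis) of 6 immediate early genes and Sik1, with Leptin-water points left of Saline-water points and a bar at each group's median. Nr4a1 is the gene whose groups do not overlap, and the medians of Klf6 and Fos are higher with leptin.

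Because CREB target genes are often read from their promoters, the 250 bases before the RefSeq start are shown for Nr4a1 and Nr4a2, and for the called gene Rgs7bp, on build GRCm38.p6 and 5′ to 3′ on the gene's strand. Capitals mark every match to TGACG or its reverse complement CGTCA, the half-site of the cAMP response element, searched on both strands and with matches allowed to overlap. Nr4a2 was chosen with its values known, as the relative of Nr4a1 at -0.35 on the log2 scale (adjusted p = 0.285). The windows are chr15:101266596-101266845 on the plus strand for Nr4a1, chr2:57124004-57124253 on the minus strand for Nr4a2 and chr13:105054931-105055180 on the minus strand for Rgs7bp.
Nr4a1: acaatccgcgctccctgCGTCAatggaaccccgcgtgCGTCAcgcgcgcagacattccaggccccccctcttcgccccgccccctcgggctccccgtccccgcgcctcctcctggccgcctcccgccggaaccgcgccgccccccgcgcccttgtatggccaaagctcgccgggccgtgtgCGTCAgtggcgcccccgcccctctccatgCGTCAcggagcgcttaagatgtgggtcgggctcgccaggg
Nr4a2: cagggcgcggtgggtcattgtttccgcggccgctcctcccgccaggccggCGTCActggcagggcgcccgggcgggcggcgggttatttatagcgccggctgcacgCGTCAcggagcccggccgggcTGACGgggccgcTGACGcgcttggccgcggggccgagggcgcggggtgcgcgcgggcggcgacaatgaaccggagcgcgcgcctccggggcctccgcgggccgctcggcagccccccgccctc
Rgs7bp: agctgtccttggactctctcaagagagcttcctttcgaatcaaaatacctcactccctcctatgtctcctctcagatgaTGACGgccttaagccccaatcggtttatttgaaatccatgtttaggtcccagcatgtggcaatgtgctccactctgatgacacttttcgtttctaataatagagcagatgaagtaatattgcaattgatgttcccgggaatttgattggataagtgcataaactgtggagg
The Nr4a1 window held 4 matches, which begin at -233, -213, -69 and -40 from the start. The Nr4a2 window also held 4, which begin at -200, -144, -123 and -111, and the Rgs7bp window held 1 at -171. Of the 32851 promoter windows in the RefSeq table, 17.8% held at least 1 match and 0.137% held at least 4. Among the 20 immediate early genes with a window, Nr4a3 also held 4 matches and Dusp1 held 3, and their log2 fold changes were -0.24 and -0.28 (adjusted p = 0.684 and 0.344). Fos and Btg2 held 2, Egr2 and Maff held at most 2 in any of their windows, Ccn1 held 1 and Klf6 held none. The 20 genes do not include Egr1, and Sik1 had no window either. The shares over all windows were not matched for base composition. A match describes the letters and is not evidence of binding, and a part of CREB in these differences was not tested.

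The enteric nervous system list stood higher with leptin. Of its 20 neuron and glia markers 18 had a log2 fold change above 0, with a median of 0.51, and 13 were higher and 0 lower at an unadjusted p under 0.05, against 8.41% and 6.49% of all genes. None passed the adjusted threshold. Slc18a3, the vesicular carrier of acetylcholine, had 0.524, 0.711 and 1.4 CPM at its lowest, median and highest with leptin, against 0.290, 0.332 and 0.442 CPM with saline. These groups did not overlap, and the log2 fold change was 1.21 (SE 0.21, adjusted p = 0.0638). The synaptic vesicle protein gene Syt1 had 1.86, 4.66 and 6.12 CPM with leptin, against 2.13, 2.46 and 3.71 CPM with saline (log2 fold change 0.78, adjusted p = 0.129). The neuronal nitric oxide synthase gene Nos1 had a log2 fold change of 0.60.

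Smooth muscle markers stood higher as well, in all 14 of 14, with a median log2 fold change of 0.41 and 7 higher and 0 lower at an unadjusted p under 0.05 (8.41% and 6.49% of all genes). Kcnmb1, a subunit of the calcium-activated potassium channel of muscle, had 5.64, 7.20 and 8.30 CPM with leptin, against 3.71, 5.13 and 5.83 CPM with saline (log2 fold change 0.47, adjusted p = 0.103). The myosin kinase gene Mylk had 431, 728 and 786 CPM with leptin, against 478, 506 and 636 CPM with saline (0.34, adjusted p = 0.178). Synpo2 and Synm, of the contractile cytoskeleton, had log2 fold changes of 0.57 and 0.49. Chrm2, the muscarinic receptor of gut muscle, had 5.17, 9.13 and 11.2 CPM with leptin, against 5.25, 5.49 and 7.23 CPM with saline (log2 fold change 0.62, adjusted p = 0.11). Without Leptin-water 6 and 7 its log2 fold change was 0.69 and passed the threshold (adjusted p = 0.0455), as did that of Slc18a3 (1.38, adjusted p = 0.019). That fit was added after the data were seen, and Leptin-water 6 was the lowest of its group on the muscle and the neuron list. Leaving it out raises such genes in the leptin group, so these passes are no separate support.

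Library Leptin-water 6 was low for both lists. In Leptin-water 6 the neuron and glia list averaged 0.34 log2 CPM and the muscle list 5.93, the lowest of the 7, while the other 6 Leptin-water libraries had 0.93 to 1.37 and 6.23 to 7.12. The Saline-water libraries had 0.34 to 0.99 and 6.00 to 6.70. With the muscle and pancreas list means as covariates, the log2 fold change was 0.77 for Gap43 (adjusted p = 0.0967), 0.58 for Rgs7bp (0.0567) and 0.72 for Chodl (0.058), which no longer passed. Under the same covariates Gpr52 and Slc13a2os had 0.50 and 0.88 and passed (adjusted p = 0.00215 and 0.00413). The neuron and glia median was then 0.30, with 18 of 20 above 0, and Nr4a1 and Egr1 had -1.52 and -0.85.

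RNA of the exocrine pancreas list and of the stomach and Brunner gland list also varied between libraries. Over the 23 exocrine pancreas genes in the table the mean was 5.03 log2 CPM in Leptin-water 6, 3.30 in Leptin-water 1, 2.39 in Saline-water 4 and -0.91 to 0.62 in the remaining 12. Of those genes 9 did not pass the filter on low counts, so no count over the list is given. The stomach and Brunner gland list was lower with leptin in 16 of 16 genes, with a median log2 fold change of -0.64. At an unadjusted p under 0.05 only 2 were lower and 0 higher, against 6.49% and 8.41% of all genes. None passed the adjusted threshold. The list's mean was 1.54 log2 CPM in Leptin-water 7, 3.95 in Leptin-water 6 and 4.67 to 5.68 in the other Leptin-water libraries. It was 3.41 in Saline-water 5 against 5.41 to 6.67 in the other Saline-water libraries. Tff1, a trefoil peptide of gastric surface cells, had 0.408, 25.4 and 70.3 CPM with leptin, against 1.31, 61.9 and 140 CPM with saline (log2 fold change -1.41, adjusted p = 0.359). The part that these differences have in the leptin comparison was not tested beyond the covariates and the left-out libraries.

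**Figure D3:**
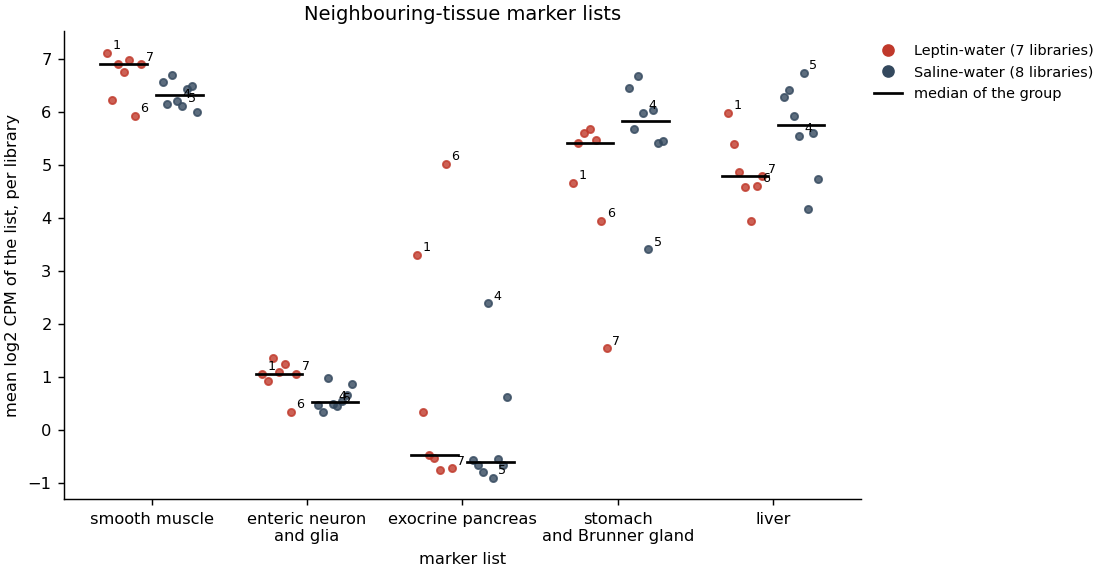
Mean log2 CPM of 5 marker lists in each library, with Leptin-water points left of Saline-water points and a bar at each group's median. The digits name the libraries Leptin-water 1, 6 and 7 and Saline-water 4 and 5. Leptin-water 6 is low for muscle and neurons and high for pancreas, and Leptin-water 7 and Saline-water 5 are low for stomach and Brunner gland.

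Genes of the liver list, most of which encode secreted proteins, were lower with leptin in 10 of 10. The median log2 fold change was -0.94, with a range of -1.07 to -0.09. At an unadjusted p under 0.05, 8 were lower, as were 6.49% of all genes. Ttr, which carries thyroid hormone and retinol-binding protein, had 13.1, 17.5 and 34.8 CPM at its lowest, median and highest with leptin, against 15.3, 37.4 and 60.4 CPM with saline (log2 fold change -0.83, adjusted p = 0.174). The iron carrier gene Trf had 25.9, 42.1 and 88.7 CPM with leptin, against 35.1, 83.7 and 154 CPM with saline (log2 fold change -0.84). Serpina3k and Serpina1a, protease inhibitors of plasma, had log2 fold changes of -1.07 and -1.02. The groups overlapped for every one of the 10. The list's mean was 3.94 to 5.98 log2 CPM with leptin and 4.16 to 6.73 with saline, with the lowest saline value in Saline-water 6 and the highest in Saline-water 5.

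Enteroendocrine genes were mostly lower. Of 29 listed genes 27 were measured, 20 had a log2 fold change below 0 with a median of -0.19, and 10 were lower and 1 higher at an unadjusted p under 0.05 (6.49% and 8.41% of all genes). Chga and Chgb encode chromogranins, the matrix proteins of hormone granules. Chga had 21.1, 27.4 and 33.1 CPM with leptin, against 28.9, 37.2 and 43.5 CPM with saline (log2 fold change -0.44, SE 0.10, adjusted p = 0.103). Chgb had 36.8, 49.8 and 61.7 CPM with leptin, against 54.9, 64.0 and 71.8 CPM with saline (log2 fold change -0.39, SE 0.10, adjusted p = 0.129). For both genes the higher Leptin-water libraries lay within the saline range.

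Among the hormones and their enzymes, Gcg, the proglucagon gene, had a log2 fold change of -0.57, and Tph1, the first enzyme of serotonin synthesis in gut, had -0.34. Sct, which encodes secretin, had 10.5, 12.8 and 14.96 CPM with leptin, against 12.5, 14.8 and 19.8 CPM with saline (log2 fold change -0.29, adjusted p = 0.186). Cck, which encodes cholecystokinin, had 20.6, 21.7 and 26.1 CPM with leptin, against 19.2, 26.2 and 29.7 CPM with saline (log2 fold change -0.19, adjusted p = 0.258). Cpe, the prohormone-trimming carboxypeptidase that neurons also make, went the other way, with 28.5, 50.0 and 62.0 CPM with leptin, against 30.5, 31.9 and 40.4 CPM with saline. Its log2 fold change was 0.51 (adjusted p = 0.129) and 0.25 with the muscle and pancreas covariates, while Chga and Chgb had -0.34 and -0.26 there.

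The genes of the leptin receptor and JAK-STAT feedback list differed little. The 21 members had a median log2 fold change of -0.02, with 10 above and 11 below 0. At an unadjusted p under 0.05, 2 were higher and 3 lower, against 8.41% and 6.49% of all genes, and none passed the adjusted threshold. Lepr, the receptor, had 5.02, 6.71 and 9.65 CPM with leptin, against 6.28, 8.39 and 10.5 CPM with saline (log2 fold change -0.19, SE 0.14, adjusted p = 0.523), a sign that turned with the muscle and pancreas covariates (0.0314). Socs3, the feedback inhibitor that STAT3 induces, had 23.3, 36.0 and 42.7 CPM with leptin, against 30.03, 35.1 and 50.7 CPM with saline (log2 fold change -0.17, SE 0.13, adjusted p = 0.554). The groups of both genes overlapped widely. Bcl3, an atypical IκB protein, had the lowest p of the list, with 33.4, 37.8 and 45.6 CPM with leptin, against 40.8, 44.1 and 53.6 CPM with saline (log2 fold change -0.24, adjusted p = 0.137). Cish and Stat5b had -0.16 and -0.11.

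Genes that glucocorticoids regulate were divided. Of 20, 14 had a log2 fold change above 0 with a median of 0.11, and 8 were higher and 4 lower at an unadjusted p under 0.05, against 8.41% and 6.49% of all genes. The median was 0.29 with the muscle and pancreas covariates. Nfkbia, an inhibitor of NF-κB, had 53.1, 61.5 and 66.5 CPM with leptin, against 40.2, 44.4 and 61.6 CPM with saline (log2 fold change 0.36, SE 0.08, adjusted p = 0.108). The clock gene Per1 had 62.2, 66.7 and 104 CPM with leptin, against 43.9, 52.1 and 83.8 CPM with saline (log2 fold change 0.49, adjusted p = 0.153). The metallothionein genes Mt1 and Mt2, which bind zinc, had -0.57 and -0.91, and Cebpb had -0.31. Fkbp5, a classic target of the glucocorticoid receptor, had 48.3, 69.3 and 126 CPM with leptin, against 44.5, 70.9 and 119 CPM with saline. Its groups coincided (log2 fold change 0.05, SE 0.22, adjusted p = 0.944).

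Of 20 clock genes 15 had a log2 fold change above 0, with a median of 0.11, and 4 were higher and 1 lower at an unadjusted p under 0.05. The shares of all genes were 8.41% higher and 6.49% lower, and none of the 20 passed the adjusted threshold. Noct, a rhythmic phosphatase of nicotinamide dinucleotides, had 68.01, 89.3 and 104 CPM with leptin, against 39.5, 62.3 and 76.5 CPM with saline. Of the Leptin-water libraries 6 of 7 were above every Saline-water library, and the log2 fold change was 0.55 (SE 0.12, adjusted p = 0.0948). With the muscle and pancreas covariates it was 0.78 and passed (adjusted p = 0.0367). Nr1d2, a repressor of the clock, had 105 to 125 CPM with leptin and 91.7 to 114 CPM with saline (log2 fold change 0.22, adjusted p = 0.114), and the repressor gene Bhlhe41 had 0.42.

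Ribosomal protein genes were lower with leptin in 30 of 30, by a small amount. The median log2 fold change was -0.14, the range was -0.32 to -0.06, and 20 were lower at an unadjusted p under 0.05 (6.49% of all genes). Rps19 had 45.1, 55.0 and 64.3 CPM with leptin, against 56.5, 66.6 and 85.7 CPM with saline (log2 fold change -0.32, adjusted p = 0.139). Rps18, Rps24 and Rpl18 had -0.30, -0.21 and -0.14. The list stayed below 0 in 30 of 30 genes under every alternative run, with medians of -0.18 to -0.10. These genes have many near-identical pseudogenes, and their counts are uncertain to that extent.

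Interferon-induced genes were higher in 21 of 23, with a median log2 fold change of 0.22, and 8 were higher and 0 lower at an unadjusted p under 0.05 (8.41% and 6.49% of all genes). With the muscle and pancreas covariates the median was 0.41. Ifit1, which binds foreign RNA, had 14.8, 33.8 and 50.6 CPM with leptin, against 16.5, 20.5 and 27.1 CPM with saline. In 1 Leptin-water library it was below every Saline-water library and in 4 it was above them all (log2 fold change 0.62, SE 0.23, adjusted p = 0.23). Ifi44 had 1.74, 2.71 and 3.35 CPM with leptin, against 1.38, 1.76 and 2.28 CPM with saline (log2 fold change 0.50, adjusted p = 0.17). Usp18, which dampens interferon signalling, and Nlrc5, an activator of MHC class I genes, had 0.52 and 0.40.

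Among nutrient genes, the absorptive machinery showed small differences. The 24 genes of lipid absorption had a median log2 fold change of 0.00 and none had an unadjusted p under 0.05. Of 19 carbohydrate genes 9 were above and 10 below 0, with 1 higher and 3 lower at an unadjusted p under 0.05, against 8.41% and 6.49% of all genes. G6pc and Pck1, enzymes of glucose production, had -0.46 and -0.53 (adjusted p = 0.142 and 0.193). The glucose carrier gene Slc5a1 had 2205, 2707 and 3441 CPM with leptin, against 1930, 2463 and 2707 CPM with saline (log2 fold change 0.21, adjusted p = 0.31).

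Of 22 PPAR-alpha and fatty acid oxidation genes 18 were lower with leptin, with a median log2 fold change of -0.09, and 4 were lower at an unadjusted p under 0.05 (6.49% of all genes). The median was -0.04 with the muscle and pancreas covariates, with 14 of 22 below 0. Acot1 and Cpt1a, of acyl-CoA handling and mitochondrial entry, had -0.49 and -0.16. On the log2 scale the calcium-binding protein gene S100g was at -0.21 (adjusted p = 0.24), with its highest level of all libraries in Leptin-water 1 (1392 CPM).

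Paneth cell and antimicrobial genes were spread widely. Of 20 measured, 13 had a log2 fold change below 0 with a median of -0.16, and 4 were lower and 0 higher at an unadjusted p under 0.05, against 6.49% and 8.41% of all genes. The median was -0.35 with the muscle and pancreas covariates and -0.34 without Leptin-water 6 and 7. These 4 were Reg4, a lectin of secretory cells (-0.38), Lyz1, Paneth cell lysozyme (-0.74), Ang4, an antimicrobial ribonuclease (-0.98), and Itln1, which binds microbial sugars (-0.69). The adjusted p-values lay between 0.146 and 0.265. Reg3b, a bactericidal lectin of enterocytes, had 15.6, 115 and 2113 CPM with leptin, against 23.9, 48.8 and 3098 CPM with saline. The highest values came from Leptin-water 7 and Saline-water 6, and the log2 fold change was -0.04 (SE 1.16, adjusted p = 0.991) and 2.98 without Saline-water 6. Reg3g followed it in the same libraries (log2 fold change 0.37, SE 0.93). Muc2, the main mucin of goblet cells, had 1237, 1524 and 1833 CPM with leptin, against 1388, 1581 and 1756 CPM with saline (log2 fold change -0.05, adjusted p = 0.815).

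**Figure D4:**
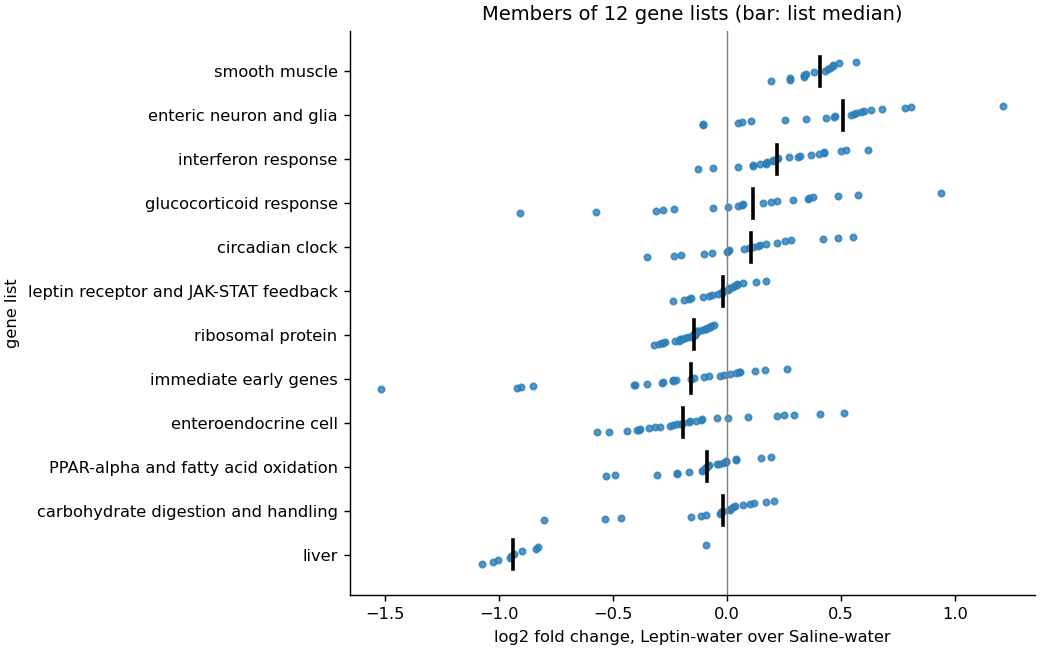
Log2 fold change of every tested member of 12 gene lists, Leptin-water over Saline-water, with a bar at each list's median. Smooth muscle members lie above 0 and liver and ribosomal protein members below 0, and the immediate early list is spread from -1.51 to 0.26.

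The same injection was given in the second set of water libraries, here called set MT, with 6 Leptin-water and 6 Saline-water libraries that share none with set M. What else separates the sets is not given in the sources used here. Whether the leptin effect differed between the sets was tested as an interaction over the 27 water libraries, and 7 of 16356 genes passed (0.0428%), while within set MT alone 8 of 16284 genes passed (0.0491%). Cwh43, a gene of lipid anchor remodelling that is in the stomach and Brunner gland list, was at -1.18 (log2 fold change) in set M and 1.79 in set MT, a difference of -2.99 (SE 0.56, adjusted p = 0.0378). The epithelial keratin gene Krt7, which is in the same list, had -0.63 in set M and 0.59 in set MT. Cwh43 and Krt7 are the 2 of the list's 16 genes whose difference passed. The calcium-binding protein gene S100a6 had -0.67 and 1.07. Acsm3, Gldc and Dhrs9 were also lower with leptin in set M and higher in set MT, with differences of -1.03, -2.29 and -1.62. The developmental gene Mab21l2 had 0.22 in set M and -0.32 in set MT, a difference of 0.52 (adjusted p = 0.0378). The count of 7 fell to 0 in 17 of the 27 fits that left out 1 library.

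Of the 5 genes that rose in set M, Slc13a2os was at 0.70 (log2 fold change) in set MT, Chodl had 0.30 and Gpr52 had 0.09. Gap43 and Rgs7bp had -0.29 and -0.16, and the difference between sets did not pass for either (adjusted p = 0.0906 and 0.108). Nr4a1 had -1.51 in set M and -0.79 in set MT, a difference of -0.74 (SE 0.43, adjusted p = 0.597). Egr1 had -0.90 and -0.37, Ccn1 had -0.85 and -0.59, and Noct had 0.55 in both. Per1 had 0.49 in set M and 0.59 in set MT.

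Markers of muscle and neurons had opposite signs in the 2 sets. All 14 muscle markers were above 0 in set M and below 0 in set MT, where their median was -0.33, and all 14 differences had an unadjusted p under 0.05, against 9.86% of all genes (4.95% higher and 4.9% lower in set M). None of the 14 passed the adjusted threshold. Of the 20 neuron and glia markers 18 were above 0 in set M and 2 in set MT, and the differences of 12 had an unadjusted p under 0.05. The stomach and Brunner gland list had a median of -0.64 in set M and 1.13 in set MT, with 16 of 16 and 2 of 16 genes below 0, and the ribosomal protein list had 0 of 30 and 22 of 30 above 0. Of the PPAR-alpha and fatty acid oxidation list, 4 of 22 were above 0 in set M and 22 of 22 in set MT, where the median was 0.14. Interferon-induced genes were above 0 in 21 of 23 in set M and in 6 of 23 in set MT (median -0.08). The liver list had 0 of 10 above 0 in set M and 4 of 6 in set MT (median 0.18), where fewer members were tested. Enteroendocrine genes were below 0 in 20 of 27 in set M and in 17 of 27 in set MT (median -0.03).

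**Figure D5:**
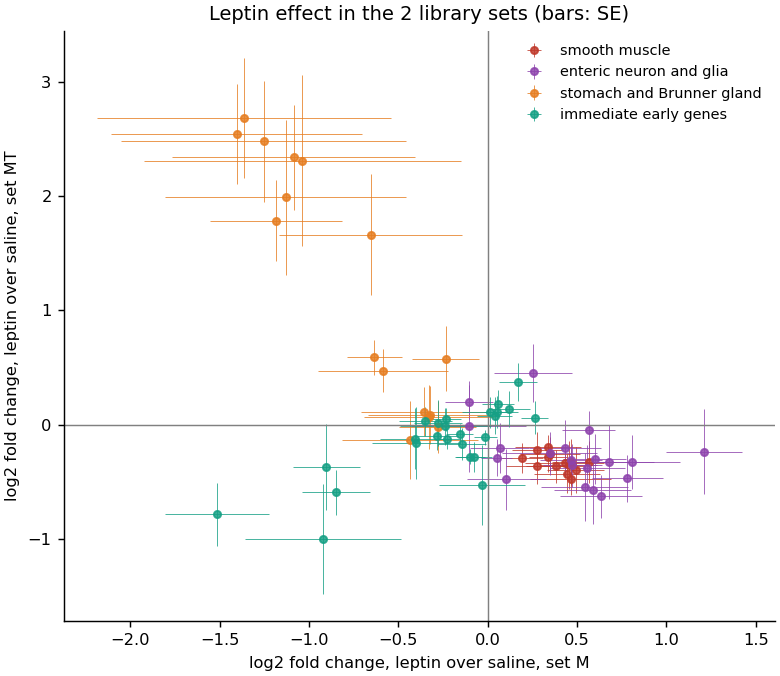
Log2 fold change with leptin in set M (horizontal) and set MT (vertical) for the members of 4 lists, with bars for the SE of each. Muscle and most neuron markers lie right of 0 and below 0, stomach and Brunner gland genes lie left of 0 and mostly above 0, and Nr4a1, Egr1 and Ccn1 lie in the lower left.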

How the data were processed

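The authors deposited raw read counts per gene symbol, a table of 16358 genes by 39 libraries. Per the labels' protocols, strand-specific libraries were made from 150 ng of total duodenal RNA after depletion of ribosomal RNA and read as paired ends. Tools in the submitters' processing notes are HISAT2, featureCounts, FastQC and edgeR 3.42.0, with build mm10. How the deposited genes were filtered and how strand was set in counting is not given in the sources used here. No column of the table was left unmapped.

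The 15 libraries of set M entered the quasi-likelihood F test of edgeR 4.0.16, run in R 4.3.3, with TMM factors, filterByExpr at a minimum count of 10 and Benjamini-Hochberg adjustment over all genes tested. The 105 genes with a count of 0 in at least 1 library of the table include 44 in set M. The interaction used the 27 water libraries. All adjusted p-values come from this test unless another tool is named. Each SE is the absolute log2 fold change divided by the root of F. CPM follow TMM scaling, and list means are of log2 CPM with a prior count of 2. The edgeR steps were checked on simulated counts. No 2 libraries of a group were identical (49 pairs, chi-square per degree of freedom 22.0 to 172).

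Genes were named by rule: every called gene, the 10 lowest p in each direction above a mean of 1 log2 CPM, the 8 lowest p among non-overlapping genes, 18 set genes and up to 4 lowest p of each list described. Slc13a2, Rabgap1l and Nr4a2 were added after their values were seen. Some genes chosen this way are not reported here. The members, the 42 lists and the tests were chosen with earlier results of these data known. Lists share genes such as Per1 and Slc5a1. Positions are from GENCODE vM21 (GRCm38), which held 15971 of the 16333 tested symbols (97.8%), and from RefSeq for Gpr52. Alternatives were DESeq2 1.42.0, limma voom 3.58.1 with quality weights, other scalings and filters, a fit over 39 libraries, a replicate block, covariates and left-out libraries. The fit without Leptin-water 6 and 7 was added after the data were seen.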

Additional observations from a re-analysis of the deposited data

Results flagged for a closer look

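In 25 of 292 groups of values examined (8.56%), 1 library lay far from the others of its group, which chance alone gives in about 1 in 20. Leptin-water 7 stood apart on the first principal component (38.4), in the stomach and Brunner gland list (1.54 log2 CPM, lowest) and in the antimicrobial list (5.90 log2 CPM, highest). Leptin-water 6 was lowest of its group in the enteric neuron and glia list (0.340 log2 CPM), in Syt1 (1.86 CPM) and in Pcdh20 (1.97 CPM). Saline-water 5 was lowest of its group in the stomach and Brunner gland list (3.41 log2 CPM), Tff1 (1.31 CPM), Gast, the gastrin gene (0 CPM), and Ccn1 (3.08 CPM), and highest in Gpr52 (22.8 CPM) and Per1 (83.8 CPM). Saline-water 6 was highest in Reg3b (3098 CPM), Reg3g (1167 CPM) and the antimicrobial list (6.60 log2 CPM) and lowest in Cacna1e (10.1 CPM).

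The other single values were Chrm2 highest in Saline-water 7 (7.23 CPM), Slc13a2 lowest in Saline-water 1 (18.9 CPM), Synpo2 and the Rn45s share highest in Saline-water 3 (108 CPM and 13.0%), the exocrine pancreas list and the mineral uptake list highest in Saline-water 4 (2.39 and 8.46 log2 CPM), Frk lowest in Leptin-water 5 (164 CPM), H2bc4 lowest in Leptin-water 3 (31.2 CPM) and S100g highest in Leptin-water 1 (1392 CPM).

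The leptin effect differed between set M and set MT, by the interaction test in edgeR over the 27 water libraries, for 7 genes. The differences in log2 fold change, set M minus set MT, were -2.99 for Cwh43, -2.29 for Gldc, -1.76 for S100a6, -1.62 for Dhrs9, -1.24 for Krt7, -1.03 for Acsm3 and 0.525 for Mab21l2, with adjusted p of 0.0378 or 0.0477. Each had the opposite sign in the 2 sets. In 17 of the 27 fits that left out 1 library, 0 genes passed.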

How the results depend on the processing

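Against the 5 genes called in set M by edgeR, limma voom with quality weights called 10, a filter at a mean log2 CPM of 1 left 3, a fit over all 39 libraries gave 2, none of them shared with the 5, the muscle and pancreas covariates gave 20 (16 higher, 4 lower, 2 shared) and DESeq2 gave 277, which included the 5. Leaving out 1 library gave 0 to 130, with 2048 to 2679 genes at an unadjusted p under 0.05. Without Leptin-water 6 and 7 together there were 24. RLE scaling, upper quartile scaling and no filter on low counts each gave 5. Whether the replicate numbers pair the libraries could not be settled from 7 correlations. Same-numbered libraries correlated at -0.36 to 0.29, above 0.1 in 4 of 7, and 2 of 7 correlated best with their own number. A replicate block, which drops Saline-water 8, gave 4 genes, 1 of them shared. Against the 7 genes whose leptin effect differed between sets, DESeq2 gave 75, no filter 5, and limma voom, upper quartile scaling, the fit over all 39 libraries and the covariates gave 0, with 1651, 1736, 1492 and 1220 genes at an unadjusted p under 0.05. Leaving out 1 library gave 0 to 36 there, with 0 in 17 of the 27 fits. For single genes, the sign turned for Lepr with the covariates (0.0314), for Fkbp5 with the replicate block (-0.0096) and on leaving out 1 library (-0.13 to 0.19), for Reg3b with DESeq2 (1.21), voom (0.85), upper quartile scaling (0.0039), the block (0.57) and on leaving out 1 library (-1.62 to 2.98), and for Reg3g with the covariates (-0.0656), without Leptin-water 6 and 7 (-0.97) and on leaving out 1 library (-0.86 to 2.37). The cause was not tested. Some list medians near 0 turned as well: with the covariates cell cycle was at 0.03, and without Leptin-water 6 and 7 xenobiotic metabolism was at 0.06, enterocytes at -0.02 and villus tip at -0.05, against -0.04, -0.01, 0.01 and 0.05. List medians moved by less than 1 SD of the list's mean between Saline-water libraries in 1041 of 1050 alternatives. That SD can exceed the median itself, as for carbohydrate genes (SD 0.12, median -0.02). A sign can therefore turn within it, and the count does not show that signs were kept. The muscle median was -0.04 with the covariates, which are built from it. The interferon median was 0.41 there, against 0.22. At 34806588 to 64593210 counts per library, counting error for genes near or below 1 CPM, such as Gap43 and Slc18a3, is of the size of the spread within a group.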

Other observations

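Several lists outside the comparisons above had members on one side of 0 with small differences. Of 17 fibroblast and stroma genes 15 had a log2 fold change below 0 with leptin in set M, with a median of -0.15, and 15 of 17 were below 0 in set MT. Of 13 replication-dependent histone genes 12 were below 0 (median -0.17), among them H1f4 (-0.26) and H2bc4 (-0.25), with 12 of 13 below 0 also with the muscle and pancreas covariates. Of 24 cell cycle genes 22 were below 0 (median -0.04), but with those covariates 14 of 24 were above 0 and the median was 0.03. The mitotic kinase gene Plk1 was at -0.24. Of 29 respiratory chain genes 25 were below 0 (median -0.04), and of 14 mucin and goblet cell genes 12 were (median -0.10, and -0.16 with the covariates). MHC class II and antigen presentation genes were above 0 in 13 of 15 in set M (median 0.08, and 0.03 without Leptin-water 6 and 7) and in 0 of 15 in set MT (median -0.27). Over all genes 51.7% were below 0 in set M, and 6.49% were lower and 8.41% higher at an unadjusted p under 0.05. At that level 0 respiratory chain, mucin and goblet cell or MHC class II genes differed. In the cell cycle list 1 was lower, in the histone list 3, and in the fibroblast list 4 were lower and 1 higher.

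Of 22 genes of the unfolded protein and integrated stress response 15 were above 0 in set M (median 0.03) and 19 in set MT. Dnajb9, a chaperone of the endoplasmic reticulum, had 60.6, 68.1 and 81.9 CPM at its lowest, median and highest with leptin, against 47.2, 55.1 and 66.5 CPM with saline (log2 fold change 0.34, adjusted p = 0.103 by edgeR), and 0.37 in set MT. Herpud1, of protein degradation at the same organelle, had 0.28 in set M and 0.47 in set MT. Abcc2, an export pump for conjugates at the brush border, had 0.23 in set M and 0.35 in set MT. None of these genes passed the adjusted threshold in set M. The nerve-expressed gene Pirt and Dgkb had 0.37 and 0.87 with leptin in set M, against -0.45 and -0.42 in set MT, and neither difference passed (adjusted p = 0.0625).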
